A study of Mus musculus with 2 samples.

Results

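The rearrangements described here were TCRα clonotypes whose first-listed V gene belonged to family 12 of the mouse TRAV genes and whose first-listed J gene was a TRAJ gene. A clonotype is the set of reads that share 1 CDR3 nucleotide sequence, the CDR3 being the stretch where V and J join. The thymus library held 644 such clonotypes among 6089 TCRα clonotypes, and the spleen library held 1176 among 9583. Both libraries came from iT cells, which are T cells that developed in vivo from mouse embryonic stem cells of C57BL/6 background (CD45.2) carrying a doxycycline-inducible Runx1-p2a-Hoxa9 cassette in the Rosa26 locus. Hematopoietic progenitors made from these cells with the inducible factors were given to irradiated B-NDG mice (CD45.1, 8 to 10 weeks old), which are immunodeficient hosts, and the samples were taken at week 6. Each library was made from 15000 sorted CD4 and CD8 single positive cells. In the paper's methods, thymic cells were gated as CD45.2+ and negative for myeloid, erythroid, B, NK and TCRγδ markers. Splenic cells were gated there as CD45.2+ CD62L+CD44-. The paper's results instead describe CD62L+CD44- cells from both organs. The gate may therefore have differed along with the organ, which these statements leave unsettled. With 1 library for each organ there was no replicate check, every test compared these 2 libraries and not the organs, and it is not given in the sources used here how many mice were pooled or whether the same mice gave both organs.

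The TCRα chain is made when a TRAV segment is joined to a TRAJ segment in a CD4+CD8+ thymocyte, with bases trimmed from both ends and, where the enzyme TdT acts, untemplated bases inserted between them. Joining can repeat on 1 allele, because each later rearrangement uses a TRAV upstream of, and a TRAJ downstream of, the previous join. The mouse TRAV array carries duplicated blocks, so that TRAV12, known from older work as Vα8, exists as original genes and as D and N copies that are nearly the same in sequence.

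In the GRCm38 assembly (GENCODE annotation) the family lies on the plus strand of chromosome 14 in 3 groups. The D copies were the farthest from the J genes, from TRAV12D-1 at chr14:52844465-52845041 to TRAV12D-3 at chr14:52929789-52930282. The N copies followed, from TRAV12N-1 at chr14:53155512-53156088 to TRAV12N-3 at chr14:53240745-53241244. The original genes were nearer, with TRAV12-1 at chr14:53538191-53538738, TRAV12-2 at chr14:53616315-53616914 and TRAV12-3 at chr14:53621657-53622245, and the annotated pseudogene TRAV12-4 at chr14:53778603-53778873 was the nearest. The gap to TRAJ61, the J pseudogene that opens the J array, was 1225 kb for TRAV12D-3, 914 kb for TRAV12N-3 and 533 kb for TRAV12-3. The clone tables name no genome build, and these positions come from the annotation and not from the reads.

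The last 90 bases of the annotated V segments are shown because they include the germline start of the CDR3 and the few positions where the copies differ there. Capitals mark the 3 positions that vary within this stretch among the 9 genes, and the sequence shown for TRAV12-1 was also that of TRAV12-3, TRAV12D-3 and TRAV12N-3.
TRAV12-1: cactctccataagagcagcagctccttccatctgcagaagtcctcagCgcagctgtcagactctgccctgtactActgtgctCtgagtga
TRAV12-2: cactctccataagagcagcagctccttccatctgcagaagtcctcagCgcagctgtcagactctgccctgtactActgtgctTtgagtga
TRAV12D-1 and TRAV12N-1: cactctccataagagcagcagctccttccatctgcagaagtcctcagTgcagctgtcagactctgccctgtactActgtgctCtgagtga
TRAV12D-2 and TRAV12N-2: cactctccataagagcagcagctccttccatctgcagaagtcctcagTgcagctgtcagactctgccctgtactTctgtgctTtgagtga
The CDR3 begins at the last tgt, so 14 germline bases of V reach into it. Within those bases only the capital in the third codon varied, which told subgroup 2 (tgtgctttgagtga) from subgroups 1 and 3 (tgtgctctgagtga) but left the encoded residues, Cys, Ala and Leu, the same. Over the whole of the annotated transcripts compared, each D copy had 0 differences from the N copy of its subgroup. The original genes differed from their D and N copies at 15 of the last 270 bases in subgroup 1, at 9 in subgroup 2 and at 8 in subgroup 3.

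The 5 most abundant TRAV12 clonotypes of each library are shown because they carry the read counts discussed later. Capitals mark inserted bases, that is bases placed neither in the aligned V nor in the aligned J, except those that match the annotated germline J directly beside an untrimmed aligned J. The exception was needed because untrimmed TRAJ24, TRAJ45 and TRAJ47 began later in the deposited alignments than in the annotation. Lower-case bases can still differ from the annotated germline where the alignment placed them in V or J. An example is the ca before tgactaac in the TRAJ17 join.
Thymus, TRAV12D-3 tied with TRAV12N-3, TRAJ6, 648 reads: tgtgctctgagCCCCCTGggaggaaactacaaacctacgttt
Thymus, TRAV12N-2, TRAJ22, 605 reads: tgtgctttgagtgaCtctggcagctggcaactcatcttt
Thymus, TRAV12D-3 tied with TRAV12N-3, TRAJ18, 589 reads: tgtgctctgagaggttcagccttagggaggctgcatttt
Thymus, TRAV12N-1, TRAJ17, 462 reads: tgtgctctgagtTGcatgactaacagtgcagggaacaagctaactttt
Thymus, TRAV12N-3, TRAJ24, 383 reads: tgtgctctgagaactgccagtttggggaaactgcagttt
Spleen, TRAV12N-2, TRAJ31, 6741 reads: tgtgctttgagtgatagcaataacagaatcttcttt
Spleen, TRAV12N-3, TRAJ9, 5466 reads: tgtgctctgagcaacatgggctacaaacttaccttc
Spleen, TRAV12N-3, TRAJ5, 3163 reads: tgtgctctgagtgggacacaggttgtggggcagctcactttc
Spleen, TRAV12N-3, TRAJ39, 2044 reads: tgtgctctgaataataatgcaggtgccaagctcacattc
Spleen, TRAV12N-3, TRAJ22, 1652 reads: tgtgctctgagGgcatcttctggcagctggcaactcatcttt
Of the 5 leading thymus clonotypes, 3 carried inserted bases. Of the 5 leading spleen clonotypes, 1 did.

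TRAV12 was one of the larger V families of both libraries. It made up 10.6% of TCRα clonotypes in the thymus (rank 4 of 21 TRAV families) and 12.3% in the spleen (rank 3 of 22). By reads, its share was 5.66% of 918063 TCRα reads in the thymus and 9.39% of 1820314 in the spleen. The thymus library held 2700370 reads over both chains and the spleen library 4585403. Because no molecular identifiers were stated, reads are not independent molecules, and the Wilson 95% intervals given for shares cover counting error only. The C gene was TRAC in 643 of 644 TRAV12 clonotypes of the thymus and in 1168 of 1176 of the spleen, and the tables hold only TCR transcripts, so that markers of other cells could not be examined.

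TRAV12 clonotypes were small in the thymus and more uneven in the spleen. The median clonotype had 59.5 reads in the thymus, against 83 for the spleen, and the largest had 648 and 6741 reads. Other TCRα clonotypes had medians of 87 and 106 reads, and their largest had 98095 and 30264. No thymus clonotype reached 1000 reads, while 16 spleen clonotypes did and together held 19.0% of the family's spleen reads. All 16 were productive, 15 of them had no inserted base, and 11 had an N copy listed first. These traits were not counted among other TCRα clonotypes of that size. The limit of 1000 reads was the same for both libraries, although the spleen had more TCRα reads. The 10 largest clonotypes held 8.47% of TRAV12 thymus reads and 15.3% of spleen reads. The effective number of TRAV12 clonotypes (the exponential of the entropy of read shares) was 428 in the thymus, against 569 for the spleen.

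Among the 3 functional subgroups, subgroup 2 was the most used. It provided 287 of 644 clonotypes in the thymus (44.6%, interval 40.8 to 48.4) and 630 of 1176 in the spleen (53.6%, interval 50.7 to 56.4). Subgroup 3 provided 232 and 357 clonotypes, and subgroup 1 provided 124 and 188. By reads, subgroup 3 came close to subgroup 2, with 20667 reads against 21800 in the thymus and 71405 against 80641 in the spleen.

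By single gene name, TRAV12-2 had the most clonotypes in both libraries, with 134 in the thymus and 259 in the spleen. TRAV12D-3 followed in the thymus (114 clonotypes) and TRAV12D-2 in the spleen (248). TRAV12D-2 took 13.7% of thymus and 21.1% of spleen TRAV12 clonotypes, the widest gap of any gene name. TRAV12-1 and TRAV12-3 had 77 and 84 of 644 clonotypes in the thymus, and 93 and 105 of 1176 (7.91% and 8.93%) in the spleen. TRAV12N-1 was listed first for the fewest clonotypes of the functional genes, 19 and 31, but TRAV12D-1 had fewer reads (1873 against 2150 for TRAV12N-1 in the thymus, and 4534 against 5201 in the spleen). Because 27 and 63 of the 28 and 64 TRAV12D-1 clonotypes were tied with TRAV12N-1 alone, these 2 genes could not be ranked. The N copies stood higher by reads than by clonotypes in the spleen, where TRAV12N-3 had 6.38% of clonotypes and 18.5% of reads. TRAV12N-2 likewise had 10.5% of spleen clonotypes and 19.7% of reads.

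**Figure D1:**
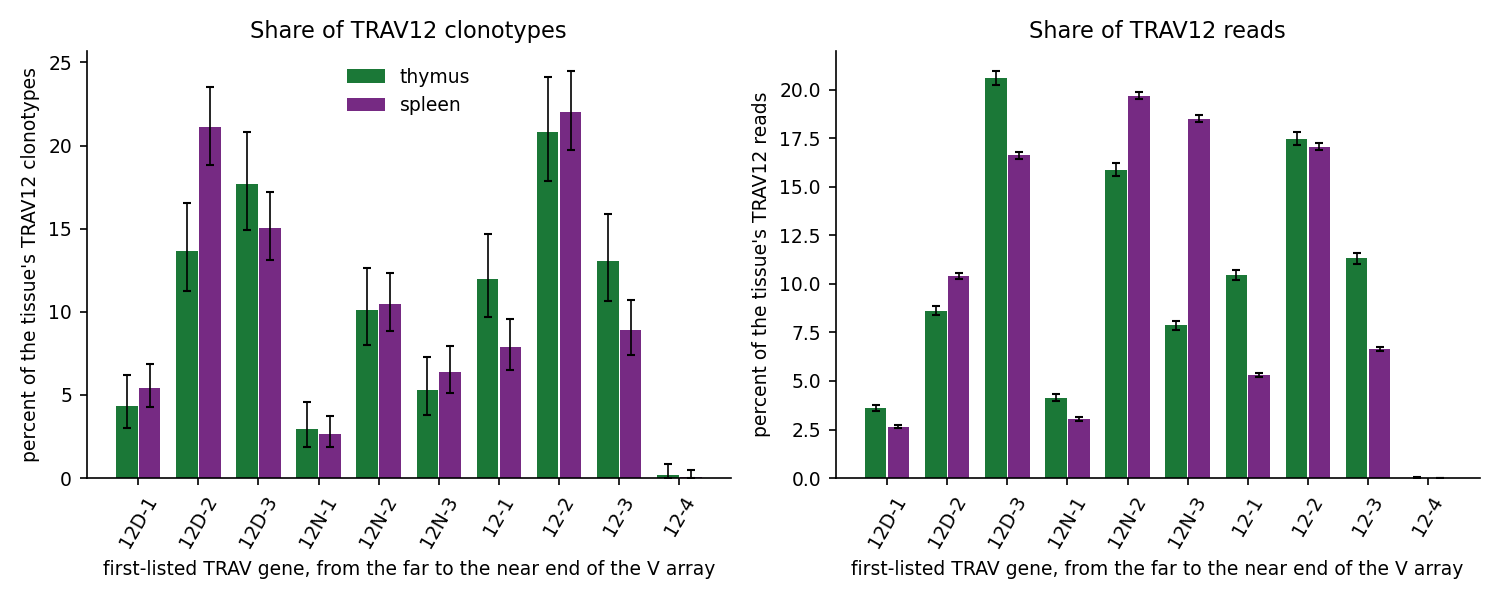
Share of each library's TRAV12 clonotypes (left) and TRAV12 reads (right) by first-listed V gene, in percent, ordered from the far to the near end of the V array, with Wilson 95% intervals of counting error as bars. TRAV12-2 leads by clonotypes in both libraries, while in the spleen TRAV12N-3 has 6.38% of clonotypes and 18.5% of reads.

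The most abundant clonotype of each original gene is shown because the joins of TRAV12-2 and TRAV12-3 in the thymus used the same J in the same frame and length.
Thymus, TRAV12-1, TRAJ37, 268 reads: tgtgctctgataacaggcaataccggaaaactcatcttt
Thymus, TRAV12-2, TRAJ34, 336 reads: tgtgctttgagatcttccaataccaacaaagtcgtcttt
Thymus, TRAV12-3, TRAJ34, 311 reads: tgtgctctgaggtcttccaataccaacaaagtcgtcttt
Spleen, TRAV12-1, TRAJ23, 865 reads: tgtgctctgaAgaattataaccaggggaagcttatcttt
Spleen, TRAV12-2, TRAJ28, 1606 reads: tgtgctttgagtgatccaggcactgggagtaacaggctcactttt
Spleen, TRAV12-3, TRAJ32, 1287 reads: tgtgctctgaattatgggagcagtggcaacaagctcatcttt
Of these 6 clonotypes 1 carried an inserted base by the aligned ends, and none was found in both libraries. In the thymus TRAV12-2 and TRAV12-3 joins the base before tcttccaa (a and g) matched neither annotated segment but fell within the aligned ends. The same was true of the t before ccaggcac in the spleen TRAV12-2 join. The largest clonotypes under TRAV12D-1 and TRAV12D-2, each tied with the N copy, had 215 and 189 reads in the thymus, joined to TRAJ5 and TRAJ24, and 450 and 280 reads in the spleen, joined to TRAJ32 and TRAJ38. The largest TRAV12N-1 clonotype had 462 thymus reads with TRAJ17 and, in the spleen, 476 reads with TRAJ13.

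The split between D and N copies rested on alignment scores that could seldom name the D copy alone. MiXCR lists every V gene it considers with a score, and a tie was counted where several genes held the top score. The top score was tied in 231 of 644 thymus clonotypes (35.9%, interval 32.3 to 39.6) and in 483 of 1176 spleen clonotypes (41.1%, interval 38.3 to 43.9). Where a D copy was listed first, an N copy held the same score in 225 of 230 thymus and 471 of 489 spleen clonotypes, and an N copy appeared at some score in all of them. Where an N copy was listed first, no D copy shared the top score in either library, and the N copy stood alone in 117 of 118 and 229 of 229. A name beginning TRAV12D therefore stood for a D or an N copy in nearly every case, and D and N copies are pooled where copies are compared. Pooled in this way they made up 348 of 644 TRAV12 clonotypes and 60.7% of reads in the thymus, and 718 of 1176 clonotypes and 70.9% of reads in the spleen. The original genes were seldom tied, in 5 of 296 and 12 of 458 clonotypes.

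Most ties joined the D and N copy of 1 subgroup. The largest sets in the spleen were TRAV12D-2 with TRAV12N-2 (238 clonotypes, 16667 reads), TRAV12D-3 with TRAV12N-3 (169 clonotypes, 26729 reads) and TRAV12D-1 with TRAV12N-1 (63 clonotypes, 4441 reads). In the thymus the sets of the same genes held 87, 110 and 27 clonotypes. Ties across subgroups were fewer. TRAV12-1 shared its top score with TRAV12-3, TRAV12D-3 and TRAV12N-3 in 4 thymus and 7 spleen clonotypes, and TRAV12-3 shared it with D and N copies of subgroups 1 and 3 in 2 spleen clonotypes. Ties that reached another family, TRAV6, occurred in 2 thymus and 1 spleen clonotypes. Read number moved with the name, since clonotypes with an N copy alone at the top had a median of 100 thymus or 171 spleen reads, against 59 and 68 for D copies tied with N. The annotated D and N transcripts did not differ, and the V sequences that MiXCR aligned to were not used here, so that what set the N copies apart was not tested.

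**Figure D2:**
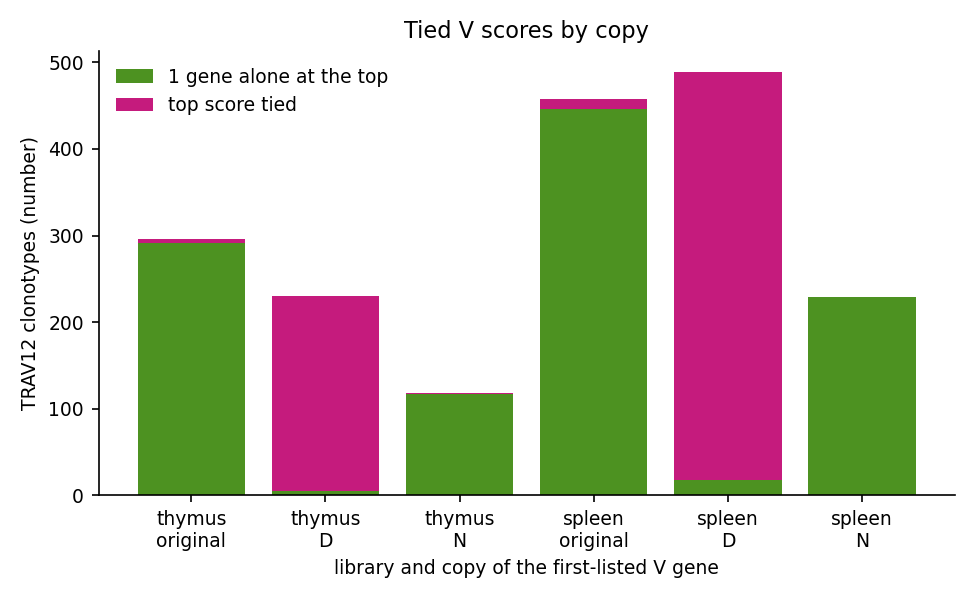
Number of TRAV12 clonotypes by library and by copy of the first-listed V gene, divided into those with 1 gene alone at the top V score and those with a tied top score. Of clonotypes listed under a D copy, 225 of 230 in the thymus and 471 of 489 in the spleen were tied with an N copy, whereas those under an N copy were nearly all untied.

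D and N copies were joined to J genes farther along the array than the original genes. Here 3′ TRAJ means TRAJ23 and genes nearer to the C gene, and 5′ TRAJ means TRAJ45 and genes nearer to the V genes. In the thymus, 210 of 348 D and N clonotypes used a 3′ TRAJ (60.3%), against 53 of 296 original clonotypes (17.9%), a difference of 42.4 percentage points (interval 35.4 to 48.8). In the spleen the shares were 356 of 718 (49.6%) and 109 of 458 (23.8%), a difference of 25.8 points (interval 20.3 to 31.0). The median TRAJ number of D and N copies was 22 in the thymus and 24 for the spleen, against 37 and 32 for the original genes. These comparisons between copies were added after seeing the data and are given as intervals of counting error with no test.

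At the other end of the J array the order was turned. A 5′ TRAJ was used by 13 of 348 D and N clonotypes and 67 of 296 original clonotypes in the thymus (3.74% and 22.6%), and by 36 of 718 and 55 of 458 in the spleen. The difference of D and N copies from original genes was -18.9 points in the thymus (interval -24.2 to -13.8) and -6.99 points in the spleen (interval -10.6 to -3.75), and these intervals did not overlap.

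In each subgroup the 3′ TRAJ share was higher for D and N copies than for the original gene, but to a different extent. In the thymus the difference in 3′ TRAJ share was 56.1 points for subgroup 2 (interval 46.0 to 64.3) and 38.9 points for subgroup 3 (interval 26.0 to 49.5). Subgroup 1 gave 9.37 points in the thymus with an interval of -6.60 to 25.9, so that no difference was detectable there with 47 D and N clonotypes, and their median TRAJ number of 37 was not below the 34 of TRAV12-1. In the spleen the differences were 18.3, 33.6 and 17.5 points for subgroups 1, 2 and 3, each with an interval above 0. By gene name, the 3′ share in the thymus ran from 11.2% for TRAV12-2 to 73.8% for TRAV12N-2.

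TRAV13 and TRAV14, which also have original, D and N copies, had the same order. In the thymus the D and N copies of TRAV13 used 3′ TRAJ in 47.1% and the original genes in 15.8%, and those of TRAV14 did so in 50.1% and 14.2%. In the spleen they were 47.7% and 19.4% for TRAV13 and 45.5% and 20.8% for TRAV14. The thymus share of 60.3% for the TRAV12 D and N copies was the highest of these 3 families, and whether it differed from the other two was not tested.

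**Figure D3:**
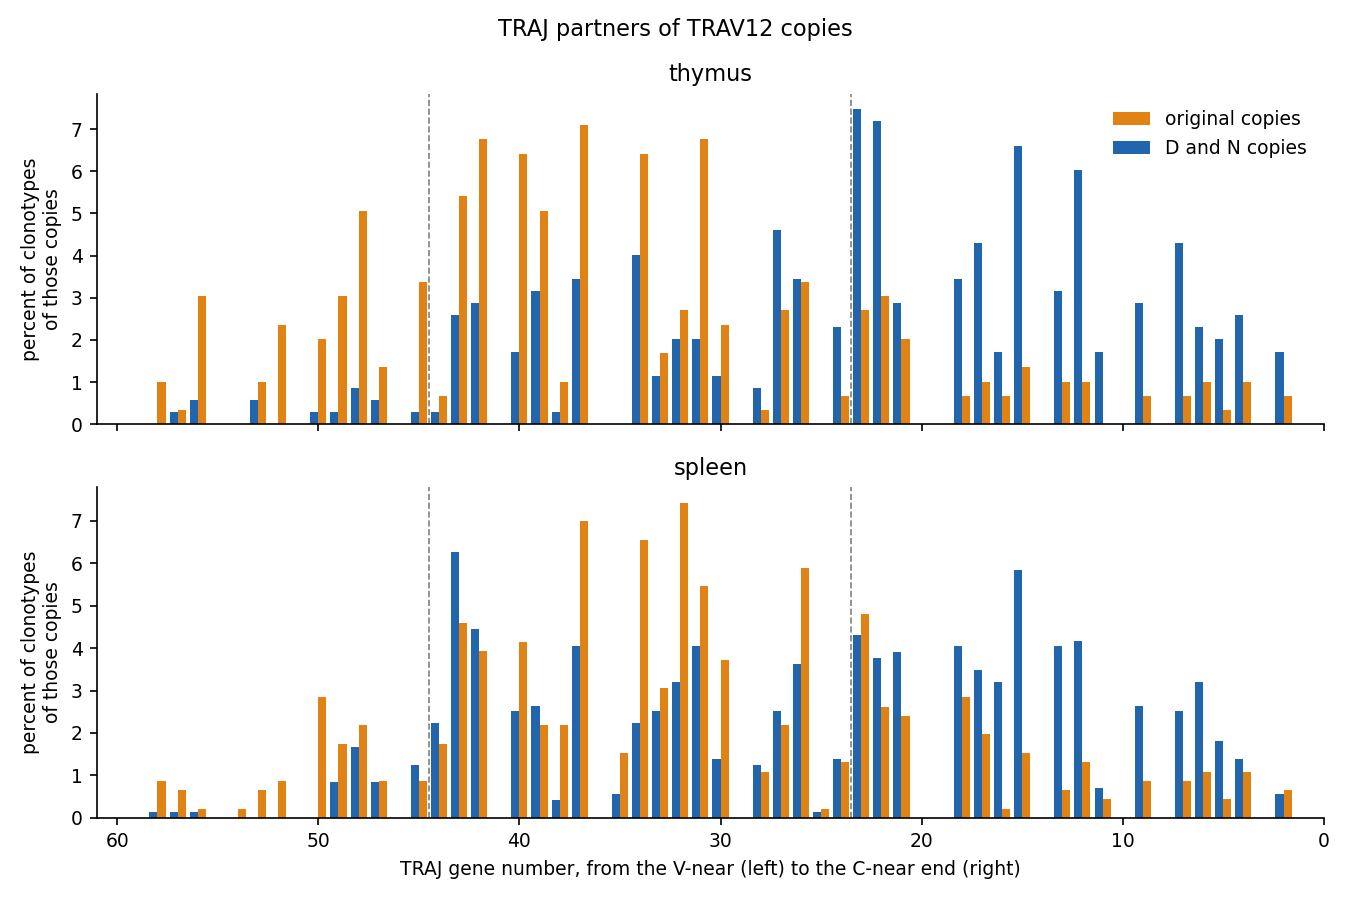
Percent of TRAV12 clonotypes of the original copies and of the D and N copies joined to each TRAJ gene, from the V-near end (left) to the C-near end (right), for thymus (top) and spleen (bottom), with dashed lines at the limits of 5′ and 3′ TRAJ. Right of the second dashed line lie 60.3% of D and N but 17.9% of original clonotypes for thymus, and 49.6% and 23.8% for spleen.

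TRAV12 joined 42 TRAJ genes in the thymus, making 230 different V-J pairs, and 45 in the spleen, making 289, and no J exceeded 5.61% of the family's clonotypes. In the thymus TRAJ22 and TRAJ23 led with 34 clonotypes each (5.28%), followed by TRAJ34 and TRAJ37 with 33 each (5.12%) and TRAJ42 with 30 (4.66%). Among other TCRα clonotypes of the thymus these J genes had, in that order, 4.81%, 5.56%, 4.17%, 5.01% and 2.74%. Of the 34 TRAJ22 clonotypes 25 belonged to D and N copies, and of the 33 TRAJ37 clonotypes 21 belonged to original genes. In the spleen TRAJ43 led with 66 clonotypes (5.61%, interval 4.44 to 7.08), against 2.66% among other TCRα clonotypes. TRAJ37 (61, 5.19%), TRAJ32 (57, 4.85%), TRAJ31 (54, 4.59%), and TRAJ26 and TRAJ23 (53 each, 4.51%) followed. Among other TCRα clonotypes of the spleen these followers had, in that order, 3.90%, 3.53%, 5.60%, 3.84% and 5.33%. The shares of single J genes were not tested. TRAJ15, used by 27 thymus and 49 spleen clonotypes, was joined to D and N copies in 23 and 42 of them.

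Taking all copies, the 3′ TRAJ share of TRAV12 was 40.8% in the thymus against 39.5% for the spleen, beside 37.4% and 38.3% for all other TCRα clonotypes. Neither difference passed Fisher's exact test, two-sided, after Benjamini-Hochberg adjustment over the 9 such tests made (difference 3.46 points, interval -0.484 to 7.51, adjusted p = 0.281 in the thymus, and 1.23 points, interval -1.72 to 4.23, adjusted p = 0.752 in the spleen). The TRAV12 share of the thymus differed from that of the spleen by 1.30 points (interval -3.38 to 6.02, adjusted p = 0.793 by Fisher's exact test).

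By reads, 1 clonotype held most of the reads of each of the 3 leading V-J pairs of the spleen, but not of the next pairs. TRAV12N-2 with TRAJ31 held 7189 reads in 5 clonotypes, or 4.21% of TRAV12 reads, and 93.8% of those reads came from 1 clonotype. TRAV12N-3 with TRAJ9 held 5596 reads, of which 97.7% came from 1 clonotype, and TRAV12N-3 with TRAJ5 held 3762 reads, of which 84.1% did. TRAV12D-3 with TRAJ42 (3526 reads, 11 clonotypes) and TRAV12N-3 with TRAJ43 (3168 reads, 8 clonotypes) followed, and the largest clonotype gave 40.4% of the reads of each. The leading pair of the thymus, TRAV12N-2 with TRAJ22, held 1824 reads in 9 clonotypes (3.51%), and its largest clonotype gave 33.2% of them. The next thymus pairs held 1177 reads (TRAV12-2 with TRAJ31), 1093 (TRAV12D-3 with TRAJ18), 1085 (TRAV12N-2 with TRAJ12) and 1079 (TRAV12D-3 with TRAJ23). Their largest clonotypes gave 21.9%, 53.9%, 27.4% and 26.3% of these.

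Most TRAV12 clonotypes were productive, meaning that the CDR3 had no frameshift and no stop codon. The productive share was 481 of 644 in the thymus (74.7%, interval 71.2 to 77.9) and 813 of 1176 in the spleen (69.1%, interval 66.4 to 71.7). The difference of 5.56 points (interval 1.21 to 9.75) had an unadjusted p of 0.0129 by Fisher's exact test and missed the threshold of 0.05 after adjustment (adjusted p = 0.0579). Other TCRα clonotypes were productive in 74.6% and 69.4%, and TRAV12 differed from them by 0.0522 points in the thymus (interval -3.63 to 3.46, adjusted p = 1) and by -0.309 points in the spleen (interval -3.18 to 2.45, adjusted p = 0.944, Fisher's exact test). Of the clonotypes that were not productive, 162 thymus and 360 spleen clonotypes were frameshifted, and 1 and 3 had an in-frame stop codon. Productive clonotypes held 81.7% of TRAV12 thymus reads and 83.3% of spleen reads.

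Frame differed among the copies of subgroup 1 in the spleen. There 42 of 95 D and N clonotypes were productive (44.2%), against 64 of 93 TRAV12-1 clonotypes (68.8%), a difference of -24.6 points (interval -37.4 to -10.4). In the thymus the shares were 63.8% and 64.9%. Subgroup 2 had 65.2% for D and N copies and 77.6% for TRAV12-2 in the spleen, a difference of -12.4 points (interval -19.2 to -5.19), while subgroup 3 had the opposite order there, with 77.4% and 65.7% (11.7 points, interval 1.61 to 22.3). In the thymus the intervals of all 3 subgroups included 0. These values were also added after seeing the data and were not tested.

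The most abundant out-of-frame clonotypes show how the reading frame was lost at the join, and none of them was in both libraries. Capitals mark inserted bases as above.
Thymus, TRAV12N-2, TRAJ12, 250 reads, 43 bases: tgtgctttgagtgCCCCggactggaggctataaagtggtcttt
Thymus, TRAV12-2, TRAJ45, 222 reads, 41 bases: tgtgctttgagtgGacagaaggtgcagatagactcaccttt
Spleen, TRAV12N-2, TRAJ24, 393 reads, 46 bases: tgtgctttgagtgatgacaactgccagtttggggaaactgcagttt
Spleen, TRAV12N-1, TRAJ35, 389 reads, 40 bases: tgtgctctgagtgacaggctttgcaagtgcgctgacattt
The 2 spleen clonotypes had no inserted base. They stood at rank 28 and 40 by reads among thymus TRAV12 clonotypes and at rank 63 and 65 in the spleen.

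TRAV12-4 appeared once in each library with the same join to TRAJ24, with 13 thymus and 22 spleen reads. Its 35 bases were out of frame and did not begin with the tgt codon that opens a CDR3.
TRAV12-4, TRAJ24, both libraries: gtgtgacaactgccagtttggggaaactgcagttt
The V score of this clonotype was 65 in both libraries, against family medians of 911 and 925, so that its assignment rests on few aligned bases.

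The spleen library held more TRAV12 CDR3s without inserted bases than the thymus library. Among productive clonotypes 146 of 481 had none in the thymus (30.4%, interval 26.4 to 34.6), and 349 of 813 had none in the spleen (42.9%, interval 39.6 to 46.4). The difference was -12.6 points (interval -17.8 to -7.15), which passed Fisher's exact test (adjusted p = 6.03e-05). The same order held for other TCRα clonotypes, at 31.9% and 40.6%, and TRAV12 did not pass the test against them in either library (difference -1.59 points, interval -5.78 to 2.90, adjusted p = 0.752 in the thymus, and 2.28 points, interval -1.31 to 5.93, adjusted p = 0.502 in the spleen, Fisher's exact test). By reads the TRAV12 shares were 35.6% and 61.9%. These shares count as inserted only the bases between the aligned V and J ends. Bases that an alignment held as a mismatch, or as an extension past a complete end, were counted as V or J. In 11 of 644 thymus and 9 of 1176 spleen clonotypes some of the inserted bases were annotated J bases, in TRAJ24 for 7 and 8 of them. Counted as J, they gave 147 of 481 productive thymus clonotypes without inserted bases (30.6%) and 352 of 813 spleen clonotypes (43.3%), an alternative added after seeing the data.

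Every functional TRAV12 gene name had a higher share without inserted bases in the spleen than in the thymus. For TRAV12-2 it was 19 of 96 in the thymus (19.8%) and 83 of 201 in the spleen (41.3%). TRAV12N-2 had the highest share in both libraries, 21 of 47 (44.7%) and 42 of 78 (53.8%). TRAV12N-1 rested on 12 and 15 productive clonotypes. D and N copies had no inserted base in 34.3% of productive thymus clonotypes and original genes in 25.4%, and in the spleen the shares were 45.3% and 39.5%. The median number of inserted bases was 2 for the thymus and 1 for the spleen.

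V ends were often trimmed within the last codons. Productive clonotypes had lost a median of 3 bases from the V end in the thymus and 2 bases for the spleen, and 2 bases from the J end in both. No base was missing from the V end in 195 of 644 thymus clonotypes (30.3%) and in 438 of 1176 spleen clonotypes (37.2%). In 42 and 98 clonotypes the V alignment ran 1 base past the complete end, and that base was T in 41 and 95 of them. In 62 and 103 it ran 2 bases past, and these were TC in 61 and 100. In a further 38 and 111 it ran 3 or more bases past, and which bases these were was not counted. T and TC complete the reverse complement of the closing ga of the V segment, the form that P bases take when a coding end is opened off centre. Which bases could extend an end was set by the aligner, so these counts cannot test whether P bases were present. The aligned V and J ends overlapped, so that some bases could have come from either segment, in 134 of 644 thymus clonotypes (20.8%, interval 17.8 to 24.1) and 392 of 1176 spleen clonotypes (33.3%, interval 30.7 to 36.1).

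The translated CDR3s kept the germline start. Of productive clonotypes 444 of 481 in the thymus (92.3%) and 712 of 813 in the spleen (87.6%) began with Cys, Ala and Leu. The fourth residue was Ser, as in the germline, in 54.3% and 55.2%. Ser followed by Asp, the residues read when the V end is kept whole and extended, opened 17.5% (interval 14.3 to 21.1) and 23.2% (interval 20.5 to 26.3). Lengths centred on 13 and 14 residues, which made up 27.2% and 27.9% of productive thymus clonotypes and 24.7% and 25.2% of those of the spleen. CDR3s of 11 residues were 3.53% of thymus and 7.13% of spleen sequences, and 1 spleen CDR3 had 39 residues.

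**Figure D4:**
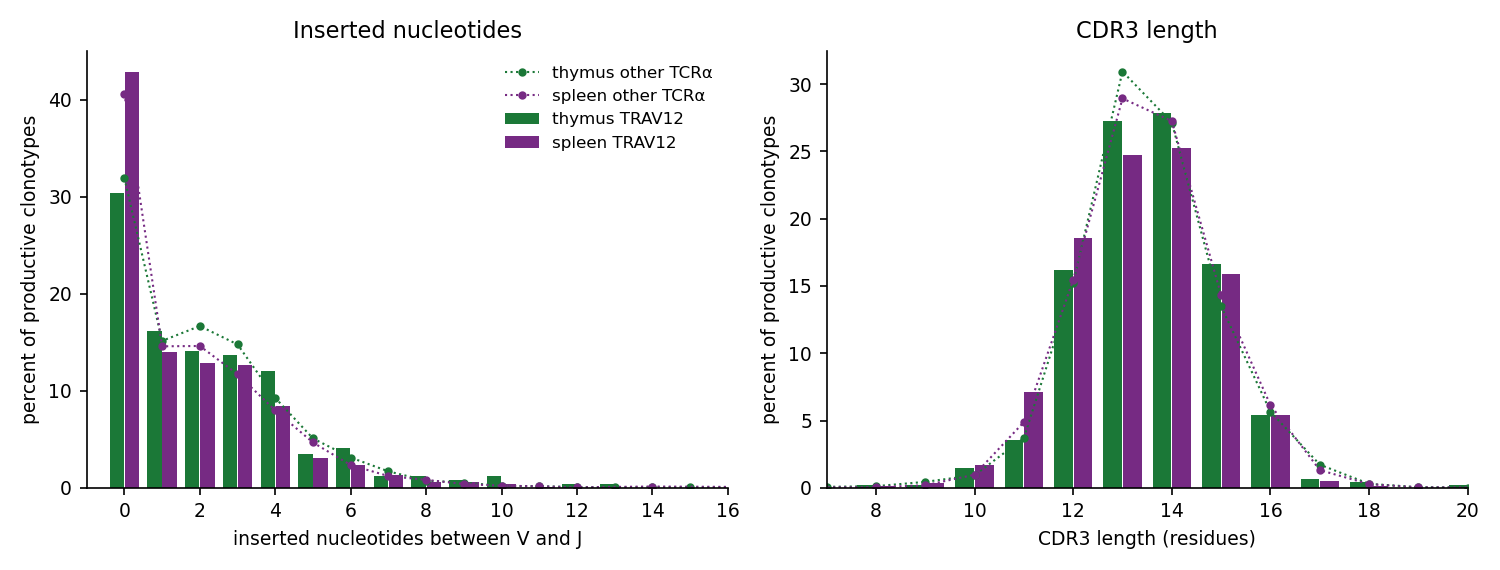
Inserted bases between V and J (left) and CDR3 length in residues (right), as percent of productive clonotypes, for TRAV12 (bars) and other TCRα clonotypes (points joined by dotted lines). The spleen bar at 0 inserted bases reaches 42.9% and the thymus bar 30.4%, close to the points for other TCRα, and 1 spleen CDR3 of 39 residues lies outside the length axis.

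Both libraries contained 54 TRAV12 CDR3 nucleotide sequences, each with the same J gene in both. They were 8.39% of thymus and 4.59% of spleen TRAV12 clonotypes, and held 9.73% and 14.9% of TRAV12 reads. Other TCRα clonotypes were shared in 11.4% and 7.37%, by a wider rule, since their match could stand under any V family but TRAV12. Matched to any TCRα clonotype of the spleen, 67 of 644 thymus TRAV12 clonotypes were shared (10.4%). A further 13 thymus TRAV12 CDR3s stood under another V family in the spleen, and 13 spleen TRAV12 CDR3s under another family in the thymus. By CDR3 amino acids, 86 productive TRAV12 sequences were common to both, encoded by 97 thymus and 125 spleen clonotypes.

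The V name was less stable than the J. Of the 54 shared CDR3s 21 had the same V gene name in both libraries and 33 another one. Of these 33, 24 had names of 1 subgroup, which in 14 were its D and its N copy, and 9 had names of different subgroups. In 13 of the 14 with a D and an N name, the N name stood in the library with more reads of that CDR3. This count was made after its values were seen. In 1 of the 14, the thymus clonotype of TRAV12N-2 with TRAJ22 shown above had 605 reads under TRAV12N-2 in the thymus and 13 under TRAV12D-2 in the spleen.

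Shared CDR3s more often lacked inserted bases. Of the 49 that were productive, 32 had none (65.3%, interval 51.3 to 77.1), against 26.4% of unshared thymus clonotypes and 41.5% of unshared spleen clonotypes. Read depth was uneven between the libraries. In 16 of the 54 the thymus held at most 3 reads, with a median of 218 spleen reads for the same CDR3, and in 3 the spleen held at most 3. In 36 both libraries held more than 3 reads. How a CDR3 with many spleen reads came to have 1 to 3 thymus reads was not tested.

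The 3 shared CDR3s with the largest summed share were also among the leading spleen clonotypes printed above. The CDR3 of TRAJ9 had 5466 reads in the spleen, listed under TRAV12N-3, and 4 in the thymus, listed under TRAV12-1. That of TRAJ5 had 3163 spleen reads under TRAV12N-3 and 2 thymus reads under TRAV12D-3. That of TRAJ22, which carries 1 inserted G, had 1652 spleen reads under TRAV12N-3 and 261 thymus reads under TRAV12-3, and it alone of the 3 was well covered in both.

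**Figure D5:**
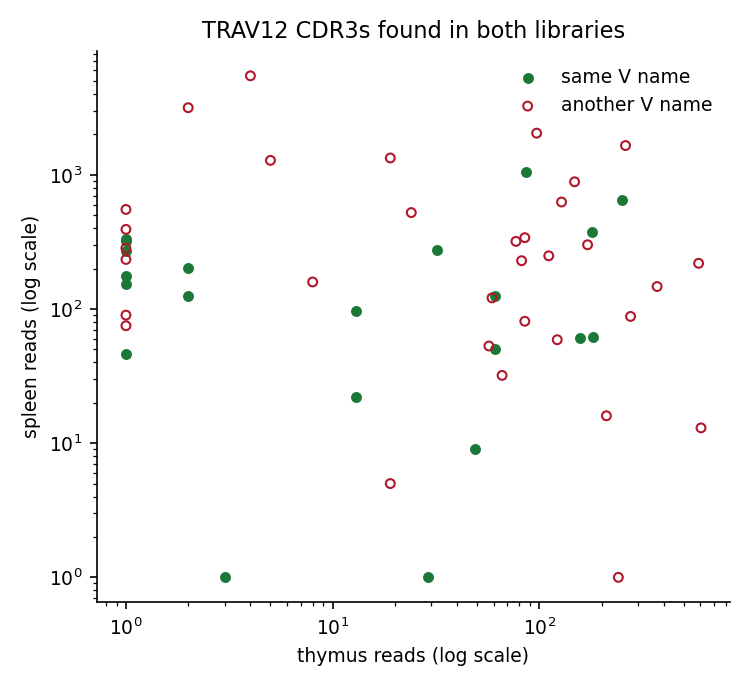
Reads in the thymus (horizontal, log scale) and the spleen (vertical, log scale) of the 54 TRAV12 CDR3s found in both libraries, filled where the V gene name was the same (21) and open where it differed (33). In 16 of the 54 the thymus held at most 3 reads.

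Different nucleotide sequences encoded the same TRAV12 CDR3 in 24 of 455 proteins of the thymus (5.27%) and in 86 of 702 of the spleen (12.3%). These shares come from unequal numbers of productive clonotypes, 481 and 813. They were not computed at equal numbers or for other TCRα clonotypes, so no difference between libraries or families is read from them. The protein with the most encodings had 15 residues and used TRAJ18. Its 6 nucleotide sequences were all in the spleen and had no base between the aligned V and J ends. Those listed under TRAV12-3, TRAV12D-3, TRAV12-1 and TRAV12D-2 each hold a base that differs from the annotated V and J segments. What made that base was not tested. The sequences are shown because they spread over 6 V gene names.
TRAV12-3, 80 reads: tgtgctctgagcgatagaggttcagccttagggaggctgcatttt
TRAV12N-3, 1001 reads: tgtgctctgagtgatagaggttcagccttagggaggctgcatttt
TRAV12D-3, 164 reads: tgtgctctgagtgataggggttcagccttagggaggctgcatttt
TRAV12-1, 236 reads: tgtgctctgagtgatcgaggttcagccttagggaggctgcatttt
TRAV12D-2, 188 reads: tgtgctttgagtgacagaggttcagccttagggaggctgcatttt
TRAV12N-2, 627 reads: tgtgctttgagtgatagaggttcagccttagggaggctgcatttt
The next proteins had 13 residues with TRAJ15 in 5 encodings and 14 residues with TRAJ5 in 4.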

How the data were processed

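TCR transcripts of 2 libraries, each from 15000 sorted cells, were amplified with the SMARTer Mouse TCR a/b kit and sequenced on a MiSeq. The authors made reads with bcl2fastq, assembled clonotypes with MiXCR, and deposited the raw read count per clonotype and a fraction, which is that count over the library's total of both chains. The fraction column was checked against the counts. Read filters and molecular identifiers are not given in the sources used here.

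From these tables TRAV12 was taken by the first-listed V gene and by a TRAJ first-listed J gene, in frame or not, with no read minimum. Shares were recomputed over TCRα or TRAV12. Inserted bases were read from the deposited reference points as the gap between aligned V and J. Where that gap held annotated J bases directly beside an untrimmed J, printed sequences show them as J. Intervals are Wilson 95% (Newcombe for differences). Productive share, share without inserted bases and 3′ TRAJ share were compared by Fisher's exact test, two-sided, with Benjamini-Hochberg adjustment over 9 tests. Clonotypes are not replicates of an organ. Genes named were every TRAV12 gene, the 5 leading TRAJ, V-J pairs and clonotypes of each library, the largest clonotypes out of frame, the 3 leading shared CDR3s and the 3 proteins with the most encodings; those not needed for a result were left out. The members and lists were chosen with earlier results of these data known. Alternatives were weighting by reads, at least 2 or 10 reads, productive clonotypes alone, tied clonotypes left out, clonotypes 1 base apart and at least 20 times fewer merged, shared CDR3s left out, other matching rules, 3′ TRAJ from TRAJ30 and, added after seeing the data, annotated J bases counted as J. The merging and the reading of reference points were tested on simulated data. Positions and V and J germline sequences were taken from GENCODE M21 (GRCm38), and neither CDR3s nor reads were aligned again. Python 3.11.15, pandas 2.3.3, numpy 2.4.6, scipy 1.17.1 and matplotlib 3.10.9 were used. TCRβ clonotypes and the study's other experiments were not analysed here.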

Additional observations from a re-analysis of the deposited data

How the results depend on the processing

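Of 180 alternative values for 26 results, 151 were counted as kept. Values with a test kept their direction and their side of the threshold, read after Benjamini-Hochberg adjustment over 9 tests. Shares and differences without a test stayed within the interval of counting error. Counts had only a wider fold limit. It let pass a fall from 644 to 481 and from 1176 to 813 TRAV12 clonotypes (productive alone), and from 54 to 39 shared CDR3s (at least 2 reads). The higher productive share of TRAV12 in the thymus passed at 6.46 points with at least 10 reads and at 5.70 points with near-identical clonotypes merged (adjusted p = 0.0250 and 0.0482 by Fisher's exact test), and turned to -1.61 points by reads. It was 4.62 points without shared CDR3s (interval -0.00427 to 9.08, adjusted p = 0.228 by Fisher's exact test). The productive difference of TRAV12 from other TCRα was near 0 and turned to -0.196 (at least 2 reads), -0.215 (without shared CDR3s) and -3.25 (by reads) points in the thymus, and to 0.212 without shared CDR3s in the spleen. With annotated J bases counted as J, the difference without inserted bases between libraries was -12.7 points. By reads, the difference without inserted bases was -26.3 points between libraries and 4.92 (thymus, turned) and 6.37 (spleen) against other TCRα, and that of 3′ TRAJ was 12.7 in the thymus and -0.776 (turned) in the spleen. Productive clonotypes alone gave TRAV12 5.45% and 9.13% of reads in thymus and spleen. Without tied clonotypes, original, D and N copies made up 70.5%, 1.21% and 28.3% in thymus, and 64.4%, 2.60% and 33.0% in spleen; weighted by reads, the thymus had 39.3% original and 27.9% N copies, and the spleen 29.1% original, 29.7% D and 41.2% N copies. Shared CDR3s numbered 31 with at least 10 reads, 21 by V and J and 96 by amino acids, in frame or not. The difference in 3′ TRAJ between copies was 49.3 points by reads in the thymus. The cause of these changes was not tested. No paired analysis was possible because each organ had 1 library, whose number carries no pairing. A count of 0 allows up to 3 reads, or 0.00578% of thymus and 0.00176% of spleen TRAV12 reads.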
